A study of Mus musculus with 14 samples.

Results

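Astrocyte loss of Csf1 in the uninjured spinal cord was examined in 6 bulk RNA libraries, 3 from AstroCSF1KO cords and 3 from control cords, out of 14 libraries in the series. The groups were taken from the sample labels. The AstroCSF1KO uninjured group is described there as naïve mice with Csf1 deleted in astrocytes, and the control uninjured group as naïve controls. The labels describe all 6 samples as spinal cord from segments matching the level that was injured in the other animals. None of the 6 received an injury. The other 8 libraries, 4 AstroCSF1KO SCI and 4 control SCI, come from cords 7 days after spinal cord injury and are used here only to ask whether the genotype difference depends on injury. The labels do not name the driver that directs the deletion to astrocytes, the part of Csf1 removed, the alleles of control mice, or the age, sex and strain of the animals. Nothing in the labels says whether each library is a single animal, so p-values measure the spread between these libraries. Of 56748 genes in the deposited table, 15155 reached 1 FPKM (fragments scaled to gene length and library size) in at least 3 of the 14 libraries and were tested.

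CSF1 is a secreted growth factor that signals through CSF1R, a receptor tyrosine kinase carried by microglia and other macrophages. Microglia depend on this receptor for survival, and it has another ligand, interleukin 34, made largely by neurons in the mouse brain. In the central nervous system CSF1 is made by astrocytes and by other glia, so loss from astrocytes alone leaves other sources in place. Microglia keep a homeostatic programme marked by genes such as P2ry12 and Tmem119, and can shift to a disease-associated or interferon-responsive one.

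One library stood apart from the other 5 before any comparison. Control replicate 1 held 13263610 reads recovered from the FPKM, against 19846397 to 20635442 in the other 5 libraries. It detected 19474 genes, against 25041 to 25942 in the others, and 13.9% of its reads were mitochondrial, against 3.38% to 4.46% in the AstroCSF1KO libraries and 4.49% and 3.59% in control replicates 2 and 3. Its log2 values correlated with the others at 0.765 to 0.784 across genes, while the other 5 correlated with each other at 0.970 to 0.990. Differences and list medians are therefore given with and without it. Astrocyte (Gfap, Aqp4), oligodendrocyte (Mbp, Sox10), neuron (Snap25) and microglia (Csf1r, P2ry12) markers were detected in all 6 libraries. Sex-linked genes differed within both groups. Xist, the noncoding RNA of the inactive X chromosome, was 0, 0.00272 and 13.4 FPKM in AstroCSF1KO cords, against 0.0694, 15.2 and 20.6 FPKM in control cords. The Y-linked helicase gene Ddx3y was 13.3, 11.2 and 0 FPKM in AstroCSF1KO cords, against 34.3, 0 and 0 FPKM in control cords. With control replicate 1 left out, Ddx3y is read in 2 of 3 AstroCSF1KO libraries and in 0 of 2 control libraries. For sex-linked genes sex and genotype cannot be told apart in that comparison. The imbalance holds for every other gene as well, and sex was not adjusted for in any fit.

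No gene was called different between AstroCSF1KO and control cords. Differences are given as AstroCSF1KO minus control on the log2(FPKM + 1) scale, fitted with limma over all genes, and a gene is called at a Benjamini-Hochberg adjusted p under 0.05. Of 15155 genes, 0 were called (0%), and the smallest adjusted p was 0.603 by limma. An unadjusted p under 0.05 was found for 331 genes, 207 higher and 124 lower, and limma's voom on recovered reads also called 0. Without control replicate 1, limma again called 0 genes (0%), with a smallest adjusted p of 0.0729 and 1973 genes at an unadjusted p under 0.05, 1042 higher and 931 lower. A miss of the threshold does not show that the groups were alike, and the intervals say how large a difference could remain. The median 95% interval reached 0.65 to either side with all 6 libraries and 0.25 without control replicate 1. Intervals lay within 1 log2 unit of 0 for 52.5% of genes with all 6 libraries and for 93.9% without control replicate 1.

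Csf1 itself was not lower in AstroCSF1KO cords when all 6 libraries were compared. Csf1 (ENSMUSG00000014599, mm39 chromosome 3, 107648364 to 107667785, minus strand) was 8.23, 10.3 and 11.0 FPKM in AstroCSF1KO cords, against 4.24, 11.9 and 12.2 FPKM in control cords. The AstroCSF1KO values lie below control replicates 2 and 3 and above control replicate 1. Means were 9.87 ± 1.45 FPKM in AstroCSF1KO cords and 9.46 ± 4.52 FPKM in control cords (SD, n = 3 each). The difference was 0.16 on the log2 scale (95% interval −0.79 to 1.12), with an exact two-sided permutation p of 1 where 0.1 is the smallest that 3 against 3 allows. Without control replicate 1 it was −0.28 (−0.59 to 0.04), with a limma adjusted p of 0.391. The exact two-sided permutation p was 0.2, where 0.1 is the smallest that 3 against 2 allows. The value rested on 893, 1121 and 1131 reads in AstroCSF1KO libraries and 270, 1296 and 1316 reads in control libraries. In bulk tissue, fewer cells of a type and less RNA per cell cannot be told apart, and these reads come from every cell of the cord. Because the part of the gene removed is not given, reads from a shortened transcript would be counted like any other.

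The other ligand and the receptor overlapped between groups. Il34 (ENSMUSG00000031750, mm39 chromosome 8, 111468461 to 111532556, minus strand) was 10.4, 9.41 and 7.61 FPKM in AstroCSF1KO cords, against 1.44, 9.23 and 6.51 FPKM in control cords. Its difference was 0.81 (−0.49 to 2.12) with all 6 libraries and 0.20 (−0.24 to 0.64) without control replicate 1, with exact two-sided permutation p of 0.2 and 0.4. Csf1r (ENSMUSG00000024621, mm39 chromosome 18, 61233670 to 61265221, plus strand) was 12.9, 15.2 and 13.98 FPKM in AstroCSF1KO cords, against 6.02, 14.9 and 15.0 FPKM in control cords. The AstroCSF1KO range, 12.9 to 15.2 FPKM, holds control replicates 2 and 3. The Csf1r difference was 0.31 (−0.56 to 1.17) with all 6 libraries and −0.09 (−0.31 to 0.13) without control replicate 1, with exact two-sided permutation p of 0.8 and 0.4.

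Among the other genes of the receptor system, Cbl was the one whose 95% interval did not span 0 once control replicate 1 was left out. Cbl encodes a ubiquitin ligase that marks activated CSF1R for degradation. It was 4.88, 4.78 and 4.78 FPKM in AstroCSF1KO cords, against 4.02, 6.18 and 7.12 FPKM in control cords. Without control replicate 1 all AstroCSF1KO values were lower, with a difference of −0.39 (−0.60 to −0.19) and a limma adjusted p of 0.381. With all 6 libraries the Cbl groups overlapped and the difference was −0.19 (−0.73 to 0.34). Tyrobp, the adaptor that carries signals from microglial receptors such as TREM2, was 10, 12.9 and 16.1 FPKM in AstroCSF1KO cords, against 0.622, 14.4 and 5.74 FPKM in control cords. Both AstroCSF1KO and control values of Tyrobp spread widely, and the difference without control replicate 1 was 0.44 (−0.50 to 1.38), against 1.32 (−0.61 to 3.25) with all 6 libraries. Of the 9 genes of this list that passed the filter, 3 were lower in every AstroCSF1KO library than in control replicates 2 and 3 (Csf1, Cbl and Csf2rb, the shared receptor chain for other myeloid growth factors). Over all genes, groups did not overlap in the lower direction for 17.6% and in the higher direction for 17.0% in that comparison. With all 6 libraries the shares were 11.1% lower and 12.2% higher. Csf2rb was low in every uninjured library, at 0.161, 0.134 and 0.0778 FPKM in AstroCSF1KO cords, against 0.137, 0.187 and 0.317 FPKM in control cords. It passed the filter of 1 FPKM only through the injured libraries.

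**Figure D1:**
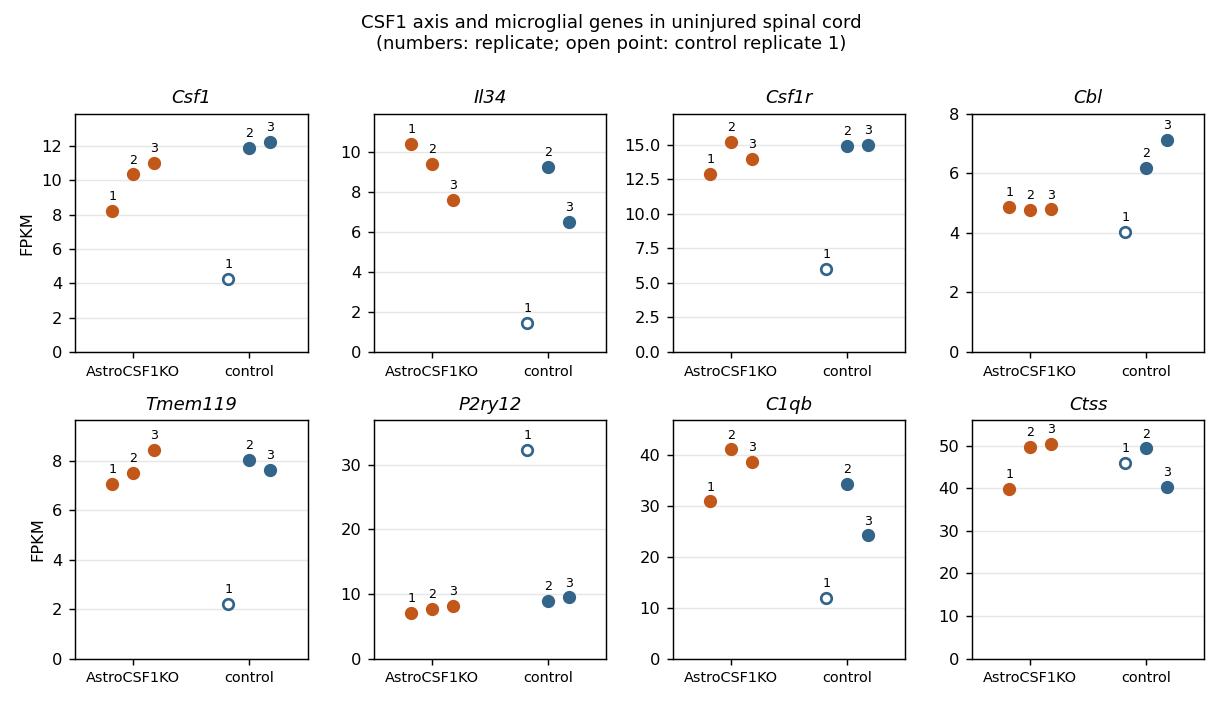
FPKM of 4 genes of the CSF1 axis (top) and 4 genes of microglia and macrophages (bottom) in each uninjured library, AstroCSF1KO on the left and control on the right, each point a library with its replicate number. Control replicate 1, the open point, lies at 4.24 FPKM for Csf1 and 32.2 FPKM for P2ry12, away from the other 5 libraries in both.

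Microglial identity genes were on both sides of control levels in AstroCSF1KO cords, with narrow intervals for most once control replicate 1 was left out. Tmem119, a membrane protein that marks microglia, was 7.07, 7.50 and 8.44 FPKM in AstroCSF1KO cords, against 2.22, 8.04 and 7.63 FPKM in control cords. Its difference without control replicate 1 was −0.03 (−0.26 to 0.20), against 0.45 (−0.57 to 1.48) with all 6 libraries. P2ry12, the purinergic receptor that guides microglial processes, was 7.09, 7.70 and 8.12 FPKM in AstroCSF1KO cords, against 32.2, 8.95 and 9.49 FPKM in control cords. P2ry12 was lower in every AstroCSF1KO library than in any control library, and its difference without control replicate 1 was −0.24 (−0.45 to −0.04), with a limma adjusted p of 0.381. With all 6 libraries the P2ry12 difference was −0.81 (−1.98 to 0.36). Of the 18 genes of the homeostatic list, which all passed the filter, 10 were higher and 8 lower without control replicate 1, with a median of 0.02, against 0.01 over all genes tested. With all 6 libraries the counts were the same and the median was 0.07, against 0.04 over all genes. Without control replicate 1 the 95% interval lay within 1 log2 unit of 0 for 17 of the 18 and within 0.5 for 16, against 93.9% and 70.1% of all genes. With all 6 libraries these counts were 10 and 2, against 52.5% and 11.3% of all genes. Groups did not overlap without control replicate 1 for 4 lower genes (P2ry12, Sall1, Mertk and Tgfbr1) and 2 higher genes (Selplg and Fcrls). These were 22.2% and 11.1% of the list against 17.6% and 17.0% of all genes. Sall1 encodes a transcription factor of microglial identity and Tgfbr1 a receptor for the TGF-beta signal that maintains it; apart from P2ry12, these genes are named after their values were seen.

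Genes shared by microglia and other macrophages overlapped between the groups for 15 of 16 in both comparisons. The share without overlap was 6.25% lower and 0% higher in each. Over all genes it was 17.6% lower and 17.0% higher without control replicate 1, and 11.1% lower and 12.2% higher with all 6 libraries. Aif1, which encodes the marker IBA1, was 1.49, 1.97 and 2.18 FPKM in AstroCSF1KO cords, against 0.867, 2.47 and 0.769 FPKM in control cords, with a difference of 0.21 (−0.52 to 0.95) without control replicate 1 and 0.35 (−0.36 to 1.06) with all 6 libraries. The cathepsin gene Ctss was 39.9, 49.6 and 50.3 FPKM in AstroCSF1KO cords, against 45.9, 49.3 and 40.2 FPKM in control cords, and the groups overlapped. The Ctss difference was 0.04 (−0.43 to 0.51) with all 6 libraries. C1qb, a chain of the first complement component, was 30.9, 41.1 and 38.7 FPKM in AstroCSF1KO cords, against 11.9, 34.4 and 24.2 FPKM in control cords. Its difference was 0.74 (−0.21 to 1.69) with all 6 libraries and 0.33 (−0.13 to 0.80) without control replicate 1, and the AstroCSF1KO values overlapped control replicate 2. Over the 16 genes of the list the median was 0.17 with all 6 libraries and 0.08 without control replicate 1, with 10 higher and 6 lower. The direction depended on the control library. Against control replicate 2 alone the median was −0.08, with 4 higher and 12 lower. Against control replicate 3 alone it was 0.20, with 13 higher and 3 lower. Ptprc, the leukocyte antigen CD45, was the 1 without overlap and was lower, and it is named after its values were seen. The summed level of the list was 154, 194 and 187 FPKM in AstroCSF1KO cords, against 103, 180 and 135 FPKM in control cords.

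The 23 genes of the damage-associated microglia list had a median of 0.02 with all 6 libraries, with 13 higher and 10 lower, and −0.01 without control replicate 1, with 11 higher and 12 lower. Groups did not overlap for 6 of them in the second comparison, all lower, which is 26.1% of the list against the 17.6% of all genes. These 6 were Cst7, Lpl, Itgax, Clec7a, Axl and Ank, and they are named after their values were seen. Clec7a, a receptor for fungal glucans that marks activated microglia, was 0.314, 0.370 and 0.312 FPKM in AstroCSF1KO cords, against 1.26, 0.607 and 0.614 FPKM in control cords. Of the uninjured libraries only control replicate 1 reached 1 FPKM, so Clec7a passed the filter through injured libraries. It was lower in all AstroCSF1KO libraries than in all 3 controls, with a difference of −0.44 (−0.84 to −0.03) with all 6 libraries and −0.27 (−0.47 to −0.07) without control replicate 1, at limma adjusted p of 0.603 and 0.381. Apoe, a lipid carrier made by astrocytes as well as activated microglia, was 926, 1049 and 1051 FPKM in AstroCSF1KO cords, against 135, 999 and 653 FPKM in control cords. Its difference was 1.18 (−0.62 to 2.97) with all 6 libraries and 0.32 (−0.21 to 0.85) without control replicate 1.

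Markers of border macrophages and blood leukocytes were low in both groups. The 12 border-associated macrophage genes summed to 8.97, 7.87 and 6.75 FPKM in AstroCSF1KO cords, against 13.2, 8.82 and 8.16 FPKM in control cords, and the 10 kept had a median of 0.01 with all 6 libraries and −0.07 without control replicate 1. The 12 lymphocyte genes summed to 3.45, 3.14 and 3.24 FPKM in AstroCSF1KO cords, against 6.71, 2.46 and 4.24 FPKM in control cords, and 2 of them passed the filter. The 10 neutrophil genes summed to 16.9, 24.5 and 25.1 FPKM in AstroCSF1KO cords, against 26.0, 19.1 and 14.1 FPKM in control cords, and the 9 kept had a median of 0.16 with all 6 libraries and 0.31 without control replicate 1.

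The type I interferon genes were examined because the series title names interferon beta beside CSF1. Of 30 kept genes, 17 were higher and 13 lower with all 6 libraries, with a median of 0.03. The balance was the other way without control replicate 1, with 12 higher and 18 lower and a median of −0.06, and 0 were called in either comparison. Without it, groups did not overlap for 7 lower genes and 1 higher gene, 23.3% and 3.33% of the list against 17.6% and 17.0% of all genes. Among the 7 are Ifit1 and Ifit3, whose proteins bind foreign RNA. Ifit1 was 1.58, 1.16 and 1.70 FPKM in AstroCSF1KO cords, against 2.81, 2.37 and 2.11 FPKM in control cords, lower in each AstroCSF1KO library than in all 3 controls. Its difference was −0.47 (−0.87 to −0.07) with all 6 libraries and −0.39 (−0.70 to −0.08) without control replicate 1. Ifit3 was 5.16, 6.57 and 7.28 FPKM in AstroCSF1KO cords, against 4.80, 8.12 and 9.65 FPKM in control cords. Its difference was −0.18 (−0.85 to 0.49) with all 6 libraries and −0.44 (−0.81 to −0.06) without control replicate 1, where the limma adjusted p of both genes was 0.381. The Ifit genes are named after their values were seen.

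The 12 genes of the list of complement and phagocyte receptors were evenly split with all 6 libraries, 6 higher and 6 lower, with a median of 0.01. Leaving out control replicate 1 gave 3 higher and 9 lower, with a median of −0.14. In that comparison 5 were lower without overlap, 41.7% of the list against 17.6% of all genes, among them C3, C4b, Cd59a and Serping1. Of these, C3 and Serping1 are named after their values were seen. C4b, a component of the classical pathway, was 12.3, 13.5 and 14.1 FPKM in AstroCSF1KO cords, against 3.80, 16.5 and 17.3 FPKM in control cords. Its difference was 0.31 (−0.99 to 1.61) with all 6 libraries and −0.32 (−0.52 to −0.12) without control replicate 1, where the limma adjusted p was 0.381. Control replicate 1 lies below the AstroCSF1KO values of C4b and the other controls above them.

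Astrocyte genes lay on both sides of control levels. Gfap, the intermediate filament of astrocytes, was 408, 543 and 528 FPKM in AstroCSF1KO cords, against 187, 551 and 524 FPKM in control cords, with a difference of 0.37 (−0.76 to 1.51) with all 6 libraries and −0.13 (−0.53 to 0.26) without control replicate 1. Aldh1l1, an enzyme of folate metabolism used as a pan-astrocyte marker, was 16.9, 17.4 and 15.2 FPKM in AstroCSF1KO cords, against 5.07, 15.9 and 14.2 FPKM in control cords, with differences of 0.59 (−0.40 to 1.58) and 0.12 (−0.10 to 0.35) in the same comparisons. S100b was 407, 503 and 534 FPKM in AstroCSF1KO cords, against 523, 472 and 443 FPKM in control cords, with an interval of −0.56 to 0.56 with all 6 libraries and a difference of 0.06 (−0.31 to 0.44) without control replicate 1. For these 3 genes AstroCSF1KO and control values overlapped.

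Of the 25 identity genes, 15 were higher and 10 lower with all 6 libraries, with a median of 0.08, and 12 were higher and 13 lower without control replicate 1, with a median of −0.03. In the second comparison 4 were higher and 7 lower without overlap, 16% and 28% of the list against 17.0% and 17.6% of all genes. Aldoc, the glycolytic aldolase of astrocytes, was 560, 560 and 575 FPKM in AstroCSF1KO cords, against 172, 514 and 436 FPKM in control cords, higher in each AstroCSF1KO library than in all controls. Its difference was 0.74 (−0.34 to 1.81) with all 6 libraries and 0.25 (−0.04 to 0.55) without control replicate 1. Aqp4, the water channel of astrocyte endfeet, was 73.0, 89.4 and 90.6 FPKM in AstroCSF1KO cords, against 232, 109 and 114 FPKM in control cords. It was lower in each AstroCSF1KO library, with a difference of −0.76 (−1.58 to 0.07) with all 6 libraries and −0.41 (−0.71 to −0.12) without control replicate 1, where the limma adjusted p was 0.381. Slc4a4, a bicarbonate cotransporter, was 33.0, 33.5 and 33.5 FPKM in AstroCSF1KO cords, against 52.1, 41.1 and 47.1 FPKM in control cords, with differences of −0.47 (−0.90 to −0.04) and −0.39 (−0.59 to −0.19) in the same comparisons. Aqp4 and Slc4a4 were named after their values were seen. Aldoc has a gene length of 3263 bases, Aqp4 6233 bases and Slc4a4 11333 bases, and length went with the direction of a gene over the whole table.

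The reactive astrocyte list held 25 kept genes, of which 13 were higher and 12 lower with all 6 libraries, with a median of 0.02. Leaving out control replicate 1 gave 7 higher and 18 lower, with a median of −0.11. In that comparison groups did not overlap for 8 lower genes and 2 higher genes, 32% and 8% of the list against 17.6% and 17.0% of all genes. Serpina3n, a protease inhibitor that rises in reactive astrocytes, was 30.0, 33.2 and 27.7 FPKM in AstroCSF1KO cords, against 21.9, 28.1 and 26.9 FPKM in control cords, and the groups overlapped. Its difference was 0.24 (−0.21 to 0.69) with all 6 libraries. Of 27 growth factors and signals of glia, 19 passed the filter, and their median was 0.05 with all 6 libraries and 0.04 without control replicate 1.

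**Figure D2:**
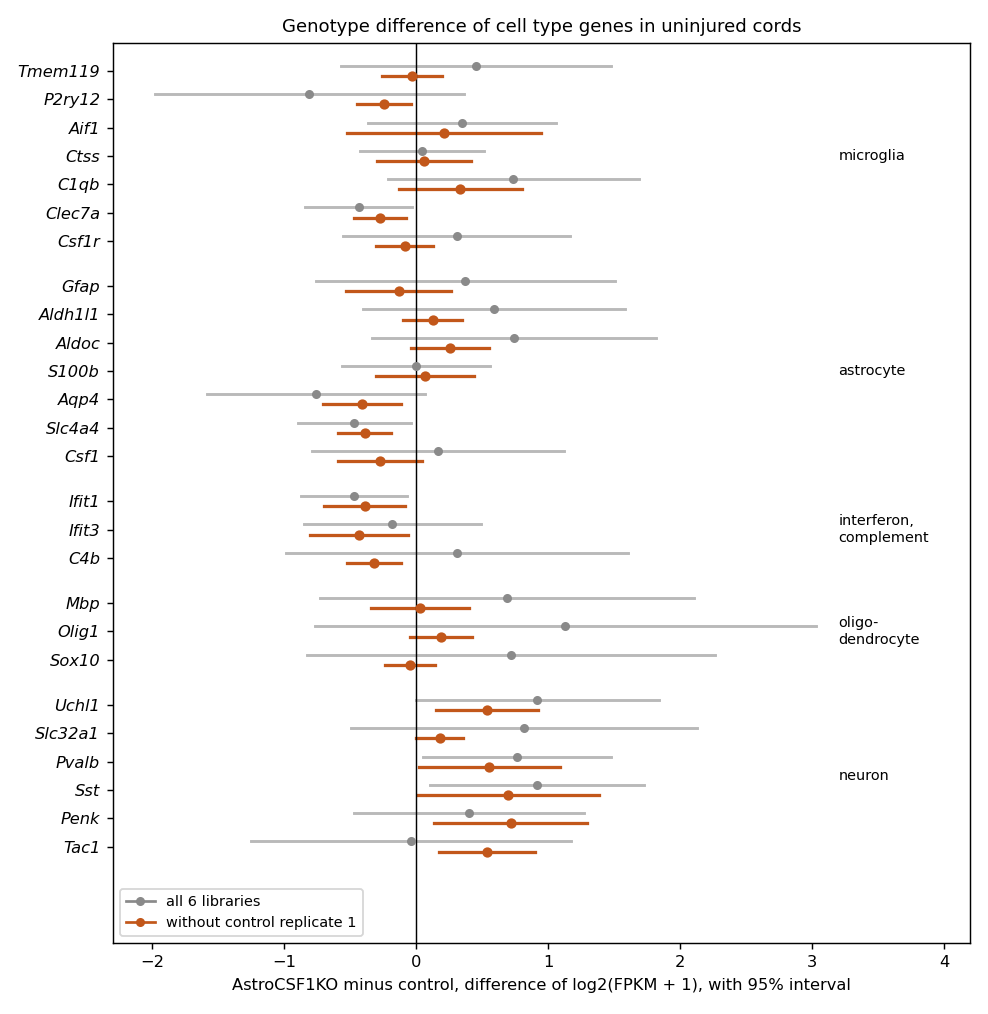
Difference of log2(FPKM + 1), AstroCSF1KO minus control, with its 95% limma interval for genes of microglia, astrocytes, interferon and complement, oligodendrocytes and neurons; grey shows all 6 libraries and orange the 5 without control replicate 1. Orange intervals are shorter for most genes (not for Aif1); in orange, Csf1 reaches from −0.59 to 0.04, and Tac1, Penk and Uchl1 lie to the right of 0.

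Oligodendrocyte genes lay close to control levels without control replicate 1. Mbp, the myelin basic protein, was 1767, 1741 and 1589 FPKM in AstroCSF1KO cords, against 421, 1654 and 1677 FPKM in control cords, with a difference of 0.69 (−0.73 to 2.11) with all 6 libraries and 0.03 (−0.35 to 0.40) without control replicate 1. The 20 myelin genes had a median of 0.26 with all 6 libraries, with 13 higher and 7 lower, and 0.03 without control replicate 1, with 12 higher and 8 lower. In the second comparison, for 19 of the 20 the interval lay within 0.5 log2 units of 0. In the lineage list Sox10, a transcription factor of all stages, was 56.7, 62.0 and 60.9 FPKM in AstroCSF1KO cords, against 11.9, 63.4 and 60.2 FPKM in control cords, with a difference of 0.72 (−0.83 to 2.26) with all 6 libraries and −0.05 (−0.24 to 0.14) without control replicate 1. Olig1, which specifies the lineage, was 216, 237 and 212 FPKM in AstroCSF1KO cords, against 26.6, 199 and 190 FPKM in control cords. Olig1 was higher in each AstroCSF1KO library, with differences of 1.13 (−0.77 to 3.03) and 0.19 (−0.05 to 0.42) in the same comparisons. The 14 lineage genes had a median of 0.23 with all 6 libraries and −0.03 without control replicate 1.

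The 25 pan-neuronal and synaptic genes had a median of 0.36 with all 6 libraries and 0.02 without control replicate 1. The 20 genes of transmitter identity had medians of 0.04, with 10 higher and 10 lower, and 0.06, with 14 higher and 6 lower. Uchl1, an abundant neuronal ubiquitin hydrolase, was 536, 542 and 619 FPKM in AstroCSF1KO cords, against 176, 443 and 341 FPKM in control cords. Uchl1 was higher in every AstroCSF1KO library than in all controls, with a difference of 0.92 (−0.01 to 1.84) with all 6 libraries and 0.54 (0.15 to 0.92) without control replicate 1, where the limma adjusted p was 0.381. Slc32a1, which loads inhibitory transmitters into vesicles, was 104, 98.7 and 101 FPKM in AstroCSF1KO cords, against 23.1, 89.1 and 89.6 FPKM in control cords, with differences of 0.81 (−0.50 to 2.12) and 0.18 (0.00068 to 0.36) in the same comparisons. Pvalb, a calcium buffer of fast-spiking and proprioceptive neurons, was 100, 114 and 134 FPKM in AstroCSF1KO cords, against 50.5, 97.1 and 63.0 FPKM in control cords, with differences of 0.76 (0.05 to 1.47) and 0.55 (0.02 to 1.09). Uchl1 and Slc32a1 were named after their values were seen. Motor neuron genes, 13 kept, had a median of 0.24 with all 6 libraries and 0.04 without control replicate 1.

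All 15 kept neuropeptide genes were higher in AstroCSF1KO cords without control replicate 1, and 13 of 15 with it. The median was 0.62 without control replicate 1 and 0.46 with it. Without control replicate 1, 8 did not overlap in the higher direction, 53.3% of the list against 17.0% of all genes. With all 6 libraries 3 did not overlap in that direction, 20% of the list against 12.2% of all genes. Sst, the somatostatin gene, was 141, 156 and 166 FPKM in AstroCSF1KO cords, against 59.6, 131 and 68.3 FPKM in control cords. Its difference was 0.92 (0.10 to 1.73) with all 6 libraries and 0.70 (0.01 to 1.38) without control replicate 1. Penk, the enkephalin precursor, was 115, 121 and 81.0 FPKM in AstroCSF1KO cords, against 122, 75.5 and 52.5 FPKM in control cords, with differences of 0.40 (−0.47 to 1.27) and 0.71 (0.14 to 1.29) in the same comparisons. Tac1, the substance P precursor named after its values were seen, was 7.99, 8.40 and 7.63 FPKM in AstroCSF1KO cords, against 19.6, 6.28 and 4.29 FPKM in control cords, with differences of −0.04 (−1.25 to 1.18) and 0.54 (0.17 to 0.90). Each had a limma adjusted p of 0.381 without control replicate 1. The size depended on the control library: against control replicate 2 alone the median was 0.27, with 11 higher and 4 lower, and against control replicate 3 alone it was 0.97, with 15 higher. Sst has a gene length of 721 bases and Penk 1634 bases, and length went with the direction of a gene over the whole table.

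Vessel genes also lay on both sides. Of 20 kept, 9 were higher and 11 lower in both comparisons, with medians of −0.09 with all 6 libraries and −0.03 without control replicate 1. In the second, 5 were higher and 5 lower without overlap, 25% each against 17.0% and 17.6% of all genes. Cldn5, the claudin of the blood-brain barrier, was 59.4, 44.9 and 34.2 FPKM in AstroCSF1KO cords, against 8.56, 31.9 and 24.3 FPKM in control cords, higher in all, with a difference of 1.21 (−0.01 to 2.42) with all 6 libraries and 0.67 (0.06 to 1.28) without control replicate 1. Bsg, which encodes basigin, was 294, 295 and 309 FPKM in AstroCSF1KO cords, against 155, 266 and 194 FPKM in control cords, with differences of 0.58 (−0.05 to 1.21) and 0.40 (0.02 to 0.78) in the same comparisons. Tjp1, a scaffold of tight junctions, was 12.04, 11.6 and 11.8 FPKM in AstroCSF1KO cords, against 27.0, 14.4 and 16.04 FPKM in control cords, lower in all. Cldn5 and Tjp1 were named after their values were seen, and each had a limma adjusted p of 0.381 without control replicate 1. Pericyte and smooth muscle genes, 12 kept, had a median of 0.22 with all 6 libraries and −0.07 without control replicate 1.

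**Figure D3:**
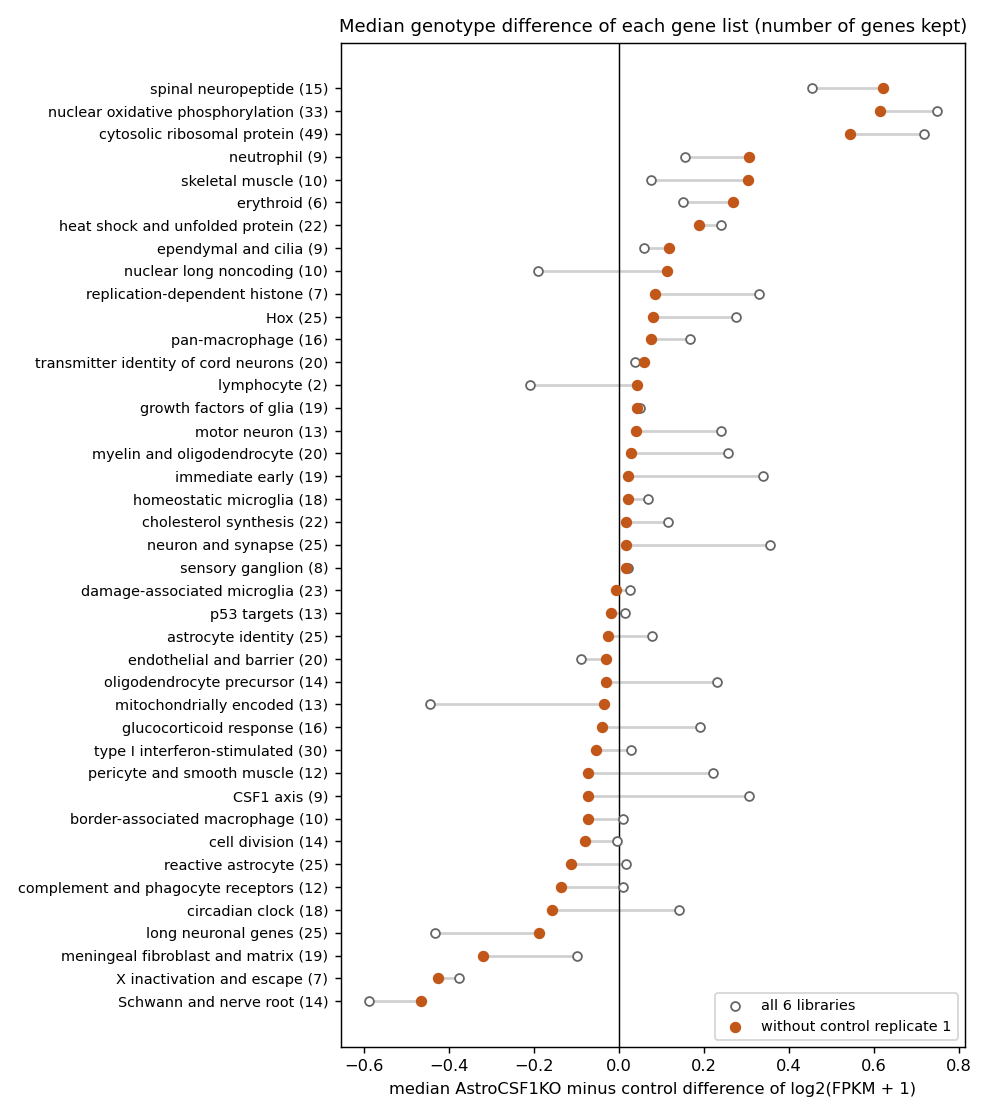
Median difference of log2(FPKM + 1), AstroCSF1KO minus control, over the kept genes of 41 lists, with open points for all 6 libraries and orange points without control replicate 1; the Y-linked list is left out. Neuropeptide, oxidative phosphorylation and ribosomal protein lists lie at 0.54 to 0.62 without control replicate 1, and nerve root, X-linked and meningeal lists lie lowest.

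The direction of a gene went with its length. Across 13098 protein-coding genes split into 5 groups by the deposited gene length, the shortest (up to 2522 bases) had a median difference of 0.20 without control replicate 1 and 83.0% of its genes were higher. The longest group (7745 bases and over) had a median of −0.13, and 15.8% of its genes were higher. With all 6 libraries these medians were 0.36 and −0.22. By library, the shortest group exceeded the longest by 0.02, 0.17 and 0.20 log2 units in AstroCSF1KO replicates 1, 2 and 3 (deviations from the mean of the 5 libraries other than control replicate 1), against −0.97, −0.01 and −0.36 in control replicates 1, 2 and 3. The groups do not overlap, but AstroCSF1KO replicate 1 and control replicate 2 are nearly level. Against control replicate 2 alone, the medians of the shortest and longest groups were 0.08 and −0.07, and against control replicate 3 alone 0.30 and −0.19. Length was not adjusted for, and its part in the differences of single genes was not tested.

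All 33 nuclear genes of oxidative phosphorylation and all 49 cytosolic ribosomal protein genes were higher without control replicate 1, with medians of 0.61 and 0.54, but 2 genes of each list did not overlap, 6.06% and 4.08% against 17.0% of all genes. Rplp1, a ribosomal stalk protein gene of 499 bases, was 603, 758 and 898 FPKM in AstroCSF1KO cords, against 79.5, 646 and 289 FPKM in control cords, with differences of 1.59 (−0.22 to 3.40) with all 6 libraries and 0.78 (−0.14 to 1.71) without control replicate 1. Control replicate 2 lies inside the AstroCSF1KO range, and against it alone the ribosomal protein median was 0.10, compared with 1.05 against control replicate 3 alone. The oxidative phosphorylation median was 0.17 against control replicate 2 alone and 1.097 against control replicate 3 alone. With all 6 libraries the 2 medians were 0.75 for oxidative phosphorylation, with 32 of 33 higher, and 0.72 for ribosomal proteins, with 46 of 49 higher. Cox6a1, a subunit of cytochrome oxidase, was 404, 452 and 575 FPKM in AstroCSF1KO cords, against 59.5, 414 and 234 FPKM in control cords, with differences of 1.39 (−0.32 to 3.09) and 0.60 (−0.11 to 1.302) in the same comparisons.

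Long neuronal genes lay on the lower side. Of 25, 24 were lower without control replicate 1 with a median of −0.19, and all 25 were lower with it, with a median of −0.43. Groups did not overlap for 16 of them without control replicate 1, 64% of the list against 17.6% of all genes. The median was −0.10 against control replicate 2 alone and −0.28 against control replicate 3 alone. Pcdh9, a protocadherin, was 26.4, 27.7 and 26.5 FPKM in AstroCSF1KO cords, against 60.8, 30.2 and 33.0 FPKM in control cords. Its difference was −0.53 (−1.25 to 0.18) with all 6 libraries and −0.23 (−0.41 to −0.05) without control replicate 1.

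**Figure D4:**
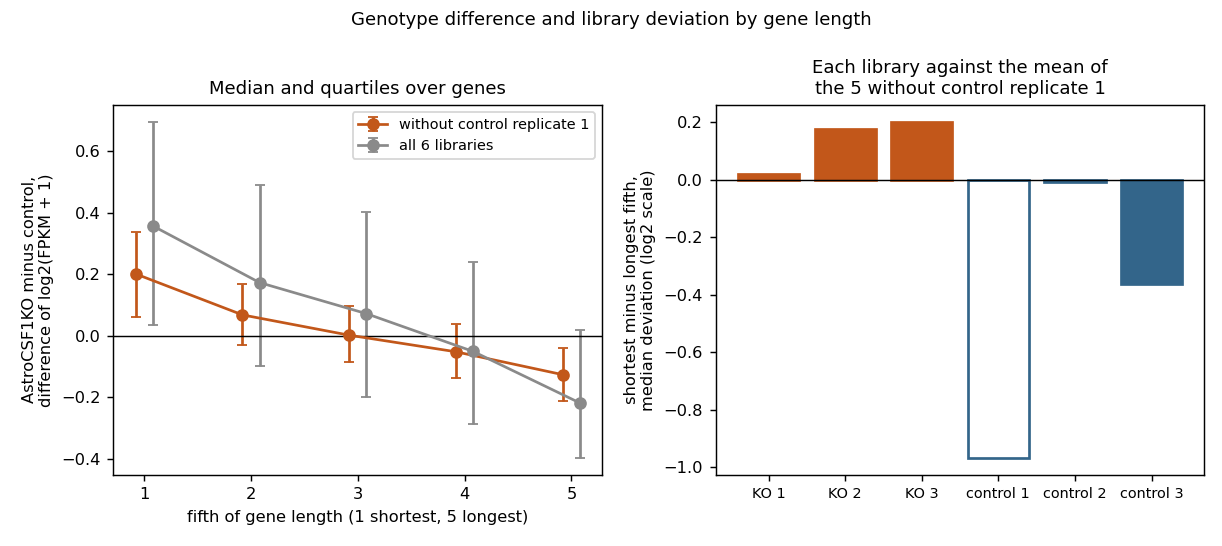
Left, median and quartiles of the AstroCSF1KO minus control difference of log2(FPKM + 1) over protein-coding genes in 5 groups of gene length, grey with all 6 libraries and orange without control replicate 1; right, the shortest minus the longest group in each library (KO is AstroCSF1KO, the open bar is control replicate 1). Medians run from 0.20 down to −0.13 without control replicate 1, and control replicates 1 and 3 lie lowest at −0.97 and −0.36.

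Protein folding genes were also higher in AstroCSF1KO cords without control replicate 1, in 21 of 22, with a median of 0.19 and 7 without overlap in the higher direction, 31.8% of the list against 17.0% of all genes. The median was 0.10 against control replicate 2 alone and 0.25 against control replicate 3 alone. The members with the highest level, Hsp90ab1 and Hspa8, differed by 0.09 (−0.20 to 0.37) and 0.22 (−0.07 to 0.50) without control replicate 1. With all 6 libraries they differed by 0.16 (−0.37 to 0.68) and −0.09 (−0.88 to 0.70). Manf, a factor released under stress of the endoplasmic reticulum, was 11.6, 9.85 and 9.72 FPKM in AstroCSF1KO cords, against 11.6, 8.30 and 6.07 FPKM in control cords, with a difference of 0.27 (−0.34 to 0.88) with all 6 libraries and 0.49 (0.13 to 0.84) without control replicate 1. Creld2, another such factor, was 10.6, 9.56 and 9.04 FPKM in AstroCSF1KO cords, against 7.66, 8.31 and 5.68 FPKM in control cords, with differences of 0.40 (−0.07 to 0.87) and 0.44 (0.05 to 0.84) in the same comparisons. Atf4, the transcription factor of the integrated stress response, was 43.7, 45.7 and 44.1 FPKM in AstroCSF1KO cords, against 14.2, 40.1 and 37.5 FPKM in control cords, with differences of 0.66 (−0.33 to 1.64) and 0.19 (0.02 to 0.37). With all 6 libraries 13 of the 22 were higher, with a median of 0.24. Manf, Creld2 and Atf4 were named after their values were seen, and each had a limma adjusted p of 0.381 without control replicate 1.

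Nerve root genes were lowest in 1 AstroCSF1KO library, replicate 3. The list summed to 365.5, 492 and 99.6 FPKM in AstroCSF1KO cords, against 509, 661 and 465 FPKM in control cords. Prx, a myelin protein gene of peripheral nerve, was 9.74, 13.8 and 0.264 FPKM in AstroCSF1KO cords, against 4.27, 22.3 and 15.7 FPKM in control cords, lowest in AstroCSF1KO replicate 3. Pmp22, made by Schwann cells and other cells, was 106, 148 and 52.5 FPKM in AstroCSF1KO cords, against 296, 187 and 142 FPKM in control cords. The 14 kept nerve root genes had a median of −0.59 with all 6 libraries, and −0.03 without AstroCSF1KO replicate 3. Without control replicate 1 the median was −0.47. The 19 kept meningeal and matrix genes had a median of −0.10 with all 6 libraries and −0.32 without control replicate 1, where 5 were lower without overlap, 26.3% of the list against 17.6% of all genes. Dcn, a matrix proteoglycan, was 5.74, 6.07 and 2.09 FPKM in AstroCSF1KO cords, against 37.6, 8.52 and 7.58 FPKM in control cords. Prx and Dcn were named after their values were seen. AstroCSF1KO replicate 3 also held 3.13% ribosomal RNA reads, against 0.315% and 0.426% in the other AstroCSF1KO libraries and 0.290%, 0.322% and 0.764% in control libraries. The part of these library features in the medians was not tested.

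AstroCSF1KO replicate 1 differed from the others in genes of body axis position. Hox genes, which mark the level along the cord, were kept for 25 of 31. Hoxa5, a cervical gene, was 34.4, 19.2 and 14.2 FPKM in AstroCSF1KO cords, against 8.93, 17.8 and 17.8 FPKM in control cords, with differences of 0.55 (−0.44 to 1.54) with all 6 libraries and 0.24 (−0.62 to 1.104) without control replicate 1. Hoxc10, a lumbar gene, was 11.2, 25 and 23.1 FPKM in AstroCSF1KO cords, against 43.9, 23.7 and 21.4 FPKM in control cords. AstroCSF1KO replicate 1 was highest of the 6 for Hoxa5 and lowest for Hoxc10, and control replicate 1 was the reverse. Other Hox genes did not place control replicate 1 on one side. It was highest of the 6 for Hoxd10 (33.9 FPKM) but lowest for Hoxc11 (0.904 FPKM) and Hoxd9 (3.50 FPKM). Crh, the corticotropin-releasing hormone gene named after its values were seen, was 9.85, 1.15 and 1.05 FPKM in AstroCSF1KO cords, against 1.26, 0.882 and 0.892 FPKM in control cords. Hoxb6, of the thoracic level, was 37.8, 32.8 and 30.3 FPKM in AstroCSF1KO cords, against 14.4, 28.6 and 22.7 FPKM in control cords, higher in all AstroCSF1KO libraries with a difference of 0.64 (−0.04 to 1.32) with all 6 libraries and 0.38 (0.04 to 0.72) without control replicate 1. The median of the list was 0.27 with all 6 libraries and 0.08 without control replicate 1.

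Clock genes varied by library as well. The 18 kept genes had a median of 0.14 with all 6 libraries and −0.16 without control replicate 1, where 7 were lower and 1 higher without overlap, 38.9% and 5.56% of the list against 17.6% and 17.0% of all genes. Dbp, an output of the clock, was 10.8, 27.4 and 31.4 FPKM in AstroCSF1KO cords, against 3.11, 30.8 and 25.4 FPKM in control cords. AstroCSF1KO replicate 1 and control replicate 1 were the low ones. The hour of collection is not given in the sources used here.

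**Figure D5:**
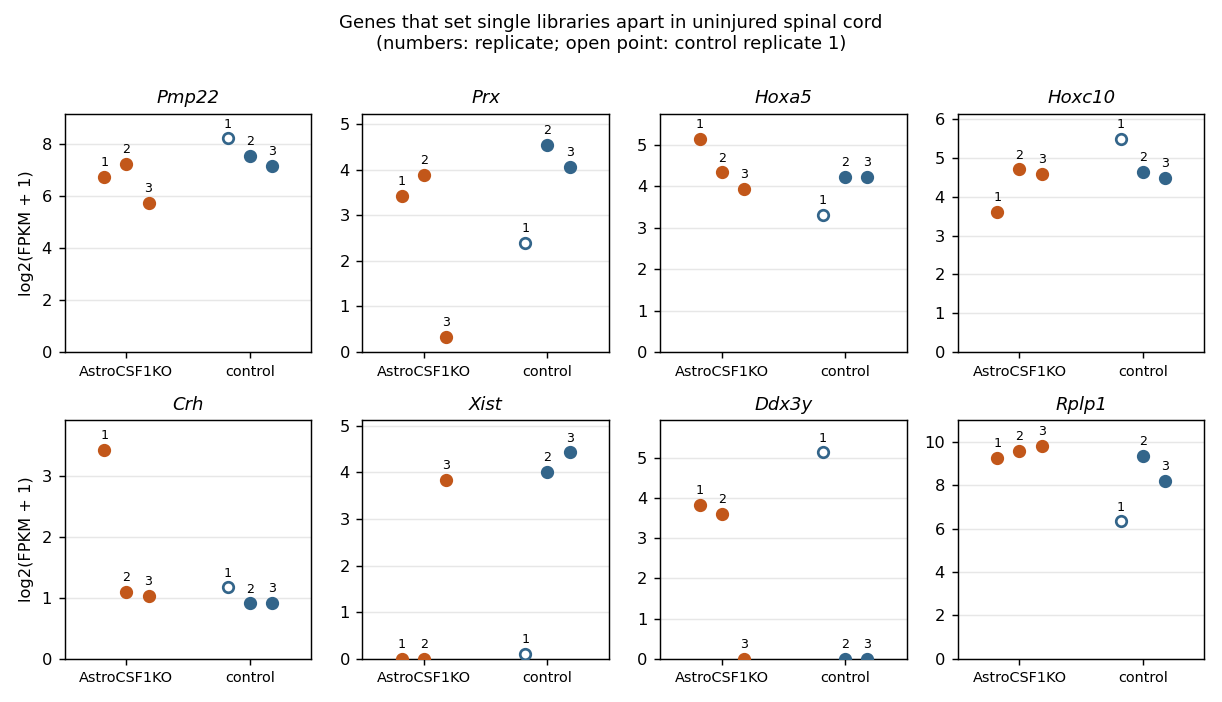
Log2(FPKM + 1) of 8 genes that set single libraries apart, AstroCSF1KO on the left and control on the right, each point a library with its replicate number and the open point control replicate 1. AstroCSF1KO replicate 3 is lowest for Pmp22 and Prx, AstroCSF1KO replicate 1 is highest for Hoxa5 and Crh, and Xist and Ddx3y split both groups.

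The genes with the smallest p included miRNA genes, short loci whose hairpin is cut into mature miRNAs that repress target mRNAs through the seed. Their mature sequences from RefSeq (GRCm38.p6) are shown for Mir132, which with Mir874 had the smallest p without control replicate 1, and for Mir149 and Mir541, named from the higher side with all 6 libraries. Capitals mark the seed, bases 2 to 8.
mmu-miR-132-5p: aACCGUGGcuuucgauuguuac
mmu-miR-132-3p: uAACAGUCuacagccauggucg
mmu-miR-149-5p: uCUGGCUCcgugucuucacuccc
mmu-miR-149-3p: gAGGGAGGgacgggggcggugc
mmu-miR-541-5p: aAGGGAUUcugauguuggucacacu
mmu-miR-541-3p: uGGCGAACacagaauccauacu
The 6 seeds all differ. The libraries were made from poly(A) RNA read in pairs of about 150 bases, so reads over these loci do not measure the mature miRNA.

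Counts behind the miRNA genes were very small. Mir132 had 1 read in each AstroCSF1KO library, against 0, 4 and 4 reads in control replicates 1, 2 and 3, where a count of 0 allows up to 3 reads (counting error only). Its limma adjusted p was 0.0729 without control replicate 1. Mir874 had 0 reads in each AstroCSF1KO library, against 0, 2 and 2 in control libraries, with the same limma adjusted p of 0.0729. Mir149 had 4, 2 and 4 reads in AstroCSF1KO libraries, against 0, 1 and 0 in control libraries, with an adjusted p of 0.603 by limma with all 6 libraries. Mir541 had 9, 4 and 2 reads in AstroCSF1KO libraries, against 0, 1 and 0 in control libraries. Among genes tested, 372 were under 200 bases long, where a single read makes a large FPKM. When genes with a mean under 10 reads were left out, a choice made after seeing the data, limma called 0 genes without control replicate 1 and the smallest adjusted p was 0.351.

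The longer genes below were named for a small p, and 0 of them were called. Without control replicate 1, Mrpl21, of the mitochondrial ribosome, was 10.5, 10.8 and 11.6 FPKM in AstroCSF1KO cords, against 8.67, 7.96 and 7.67 FPKM in control cords, a difference of 0.44 (0.25 to 0.63), and 0.40 (0.02 to 0.77) with all 6 libraries. Gpx3, a secreted glutathione peroxidase, was 18.3, 14.9 and 16.3 FPKM in AstroCSF1KO cords, against 8.97, 10.9 and 11.4 FPKM in control cords. Its difference was 0.62 (0.18 to 1.05) with all 6 libraries and 0.52 (0.28 to 0.77) without control replicate 1. Med4, of the Mediator complex, and H1f10, a linker histone, differed by 0.44 (0.24 to 0.64) and 0.50 (0.27 to 0.73) without control replicate 1, and by 0.33 (−0.08 to 0.75) and 1.59 (−0.58 to 3.76) with all 6 libraries. All 4 were higher in every AstroCSF1KO library than in all controls, and their limma adjusted p was 0.381 without control replicate 1.

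On the lower side, Timp3, an inhibitor of matrix metalloproteases, was 8.30, 8.75 and 7.62 FPKM in AstroCSF1KO cords, against 8.10, 11.6 and 12.2 FPKM in control cords, with a difference of −0.32 (−0.81 to 0.18) with all 6 libraries and −0.49 (−0.69 to −0.28) without control replicate 1. Lamc1, a laminin chain of basement membranes, was 6.51, 6.64 and 5.52 FPKM in AstroCSF1KO cords, against 6.06, 9.05 and 9.86 FPKM in control cords, with differences of −0.35 (−0.88 to 0.19) and −0.54 (−0.78 to −0.29). Lum, a matrix proteoglycan of the meninges, was 1.21, 1.69 and 0.946 FPKM in AstroCSF1KO cords, against 3.66, 2.97 and 2.08 FPKM in control cords. Efemp1, a fibulin, was 2.32, 2.78 and 2.22 FPKM in AstroCSF1KO cords, against 5.38, 4.50 and 3.52 FPKM in control cords. Lum and Efemp1 were lower in each AstroCSF1KO library than in all controls, by −0.77 (−1.30 to −0.23) and −0.66 (−1.12 to −0.20) with all 6 libraries, with a limma adjusted p of 0.603. AstroCSF1KO replicate 3, the library with the lowest nerve root sum, was the lowest of the 6 for Lamc1, Lum and Efemp1.

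Fam171b, a membrane protein gene, was 28.9, 26.7 and 26.1 FPKM in AstroCSF1KO cords, against 53.6, 37.1 and 41.8 FPKM in control cords, a difference of −0.66 (−1.15 to −0.17) with all 6 libraries and −0.52 (−0.73 to −0.30) without control replicate 1. Uprt, on the X chromosome, was 2.39, 2.10 and 2.17 FPKM in AstroCSF1KO cords, against 4.65, 3.22 and 4.62 FPKM in control cords, with a difference of −0.67 (−1.11 to −0.23). Ndufa12, a subunit of mitochondrial complex I, was 27.7, 28 and 40.0 FPKM in AstroCSF1KO cords, against 8.78, 17.99 and 10.7 FPKM in control cords, with a difference of 1.32 (0.58 to 2.07). Rps13, a ribosomal protein gene, was 23.99, 34.8 and 38.5 FPKM in AstroCSF1KO cords, against 13.97, 18.2 and 15.8 FPKM in control cords, with a difference of 0.96 (0.38 to 1.53). Each kept its groups apart, with a limma adjusted p of 0.603 with all 6 libraries. Ddx3x, an X-linked gene that escapes inactivation in female cells, was 41.1, 46.8 and 57.9 FPKM in AstroCSF1KO cords, against 106, 64.0 and 70.7 FPKM in control cords, lower in all and named after its values were seen. Its difference was −0.69 (−1.33 to −0.04) with all 6 libraries and −0.47 (−0.86 to −0.09) without control replicate 1.

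The genotype difference in uninjured cords was not shown to differ from that in injured cords. A limma contrast over all 14 libraries, the uninjured difference minus the injured one, called 0 genes (0%), with 91 genes at an unadjusted p under 0.05. Without the 3 control libraries in which few genes were seen by a single read (1.45% to 2.06% of genes, against 8.44% to 11.6% in the other 11), control uninjured replicate 1 and control SCI replicates 1 and 4, it again called 0 by limma, with 2158 genes at an unadjusted p under 0.05 and a smallest adjusted p of 0.310. For Csf1 the difference between the conditions was −0.33 (−1.36 to 0.70) with all libraries and −0.31 (−0.66 to 0.03) without those 3, with limma adjusted p of 1 and 0.377. In injured cords alone, Csf1 averaged 18.5 FPKM in AstroCSF1KO cords and 13.6 FPKM in control cords, a difference of 0.49 (−0.18 to 1.16). In the fit without control SCI replicates 1 and 4 and control uninjured replicate 1, the injured Csf1 difference was 0.04 (−0.20 to 0.28). The median interval of this contrast reached 0.80 to either side with all libraries and 0.34 without those 3. Some genes of cord level differed between the conditions. Hoxc11 averaged 3.22 and 2.09 FPKM in uninjured AstroCSF1KO and control cords, against 0 and 0 FPKM in injured ones. Hoxd10 averaged 9.03 and 17.8 FPKM, against 0.0809 and 0.65 FPKM. Hoxc8 averaged 20.4 and 21.6 FPKM, against 21.3 and 22.85 FPKM. The part of cord level in the contrast was not tested, and it cannot be told apart from injury there.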

How the data were processed

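Bulk poly(A) RNA of mouse spinal cord was sequenced with paired, non-strand-specific reads, per the labels' protocols; the submitters' processing notes name CASAVA 1.8, HISAT2 and mm39, and the counting tool is not given in the sources used here. FPKM values were deposited for all 14 libraries. Each value times gene length was a whole multiple of its library's smallest product (within 0.01) for 100% of values, which gave the reads quoted. Genes at 1 FPKM or more in at least 3 of 14 libraries were fitted as log2(FPKM + 1) in limma 3.58.1 (R 4.3.3, intensity trend), with Benjamini-Hochberg adjustment and a call at 0.05. The scripts were tested on simulated data. The 42 gene lists and the comparison were chosen with earlier results of these data known. Named genes are a fixed set, any CSF1 axis, Hox, clock or Y-linked gene, the 2 highest of each list, and the 10 smallest p per direction and fit without overlap (genes with provisional names left out); others are marked as named after their values were seen. Without strand, overlapping and antisense genes cannot be told apart. The labels do not say whether replicate numbers pair libraries. Correlations of deviations from group means were −0.02, 0.07 and −0.14 for the same number, and −0.083 to 0.135 for other numbers. They cannot decide it, because control replicate 1 enters every control deviation. Alternatives covered the pseudocount, filter, scaling, limma options, voom and each library left out.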

Additional observations from a re-analysis of the deposited data

How the results depend on the processing

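No gene was called with all 6 libraries under another pseudocount, filter, scaling, limma option, voom or a fit of all 14 libraries, and the replicate block gave 0 calls, 250 genes at an unadjusted p under 0.05 and a smallest limma adjusted p of 0.659. Leaving out single libraries gave 0 calls with all 6 and 0 to 3 without control replicate 1. The 3 calls came when AstroCSF1KO replicate 3 and control replicate 1 were both left out, and are the sex-linked genes Ddx3y, Eif2s3y and Xist (AstroCSF1KO replicate 3 is the one with Xist and no Ddx3y). Without an intensity trend and without control replicate 1, 2 genes were called, Mir132 and Mir874. Neither edgeR nor DESeq2 was run, since the deposited unit is FPKM. Csf1 was −0.22 with library weights, −0.35 with both libraries left out and −0.28 to 0.39 over single libraries left out. Csf1r was −0.027 with library weights, −0.089 with both left out and −0.089 to 0.50 over single libraries left out. Other genes with all 6 libraries changed sign as follows. With library weights they were −0.0072 for Tmem119, −0.044 for Gfap, −0.29 for C4b and 0.57 for Tac1. With both libraries left out they were −0.094 for Tmem119, −0.0011 for Ctss, −0.19 for Gfap, −0.014 for S100b, −0.36 for C4b, 0.57 for Tac1 and −0.059 for Sox10. Upper-quartile scaling gave −0.048 for Ctss and −0.092 for S100b, and voom gave 0.037 for Tac1. Over single libraries left out they were −0.031 to 0.71 for Tmem119, −0.037 to 0.15 for Ctss, −0.13 to 0.64 for Gfap, −0.078 to 0.12 for S100b, −0.44 to 0.0014 for Ifit3, −0.32 to 0.64 for C4b, −0.44 to 0.54 for Tac1 and −0.047 to 1.11 for Sox10. Without control replicate 1, total scaling gave −0.050 for Ctss, −0.044 for S100b and −0.082 for Mbp, and upper-quartile scaling −0.019 for Mbp; these scalings moved the median of all genes by −0.08 and −0.03. In that comparison, leaving out a further library gave −0.024 to 0.42 for Il34, −0.16 to 1.03 for Tyrobp, −0.094 to 0.020 for Tmem119 (0.0027 without control replicate 2), −0.27 to 0.70 for Aif1, −0.087 to 0.20 for Ctss (−0.0011 without AstroCSF1KO replicate 3), −0.014 to 0.18 for S100b, −0.00169 to 0.075 for Mbp and −0.095 to 0.51 for Hoxa5.

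List medians with all 6 libraries moved as follows. With both libraries left out they were −0.00545 for homeostatic microglia, 0.35 for neutrophil, −0.10 for reactive astrocyte, −0.024 for Hox, −0.17 for circadian, 0.092 for histone and 1.95 for Y-linked genes. Library weights gave −0.070 for border macrophages, 0.37 for neutrophil, −0.12 for reactive astrocyte, 0.039 for neuron and synapse and 0.21 for ependymal genes. Voom gave 0.40 for border macrophages, 0.35 for neutrophil, 0.15 for reactive astrocyte, 0.40 for sensory ganglion and 3.29 for Y-linked genes. A pseudocount of 0.1 gave 0.10 for border macrophages, 0.15 for reactive astrocyte and 0.16 for sensory ganglion genes. A filter of 5 FPKM gave 0.78 for ependymal and −0.19 for cell division genes and left no gene of the lymphocyte and sensory ganglion lists, upper-quartile scaling gave −0.0063 for homeostatic microglia, and a mean of at least 10 reads, chosen after seeing the data, gave −0.13 for border macrophages. Protein-coding genes only, also chosen after seeing the data, left no lymphocyte gene. Over single libraries left out the ranges were −0.0028 to 0.16 for homeostatic microglia, −0.074 to 0.030 for border macrophages, −0.057 to 0.31 for neutrophil, −0.14 to 0.075 for complement, −0.11 to 0.027 for reactive astrocyte, 0.015 to 0.54 for neuron and synapse, 0.29 to 0.71 for neuropeptide, −0.073 to 0.40 for pericyte, −0.73 to −0.030 for nerve root, −0.16 to 0.21 for circadian, −1.08 to −0.036 for mitochondrially encoded and 0.084 to 0.50 for histone genes. The cause of these shifts was not tested. Depth limits genes with few reads, such as the miRNA genes described.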

Other observations

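Genes outside the cell types of the cord varied by library. The 10 kept skeletal muscle genes had a median of 0.08 with all 6 libraries, 0.30 without control replicate 1, 0.98 against control replicate 2 alone and −0.25 against control replicate 3 alone, and the list summed to 39.5, 46.4 and 16.3 FPKM in AstroCSF1KO cords, against 72.2, 8.64 and 42.1 FPKM in control cords. The erythroid genes, which report blood left in the tissue, summed to 55.2, 72.1 and 89.2 FPKM in AstroCSF1KO cords, against 68.4, 65.6 and 49.5 FPKM in control cords. The 13 genes encoded by the mitochondrial genome had a median of −0.45 with all 6 libraries and −0.04 without control replicate 1, while nuclear genes of the same respiratory chain stood at 0.75 and 0.61.

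The other lists had the following medians, first with all 6 libraries and then without control replicate 1. Immediate early genes, which neurons switch on with activity, had medians of 0.34 and 0.02. Glucocorticoid-responsive genes had medians of 0.19 and −0.04, and cholesterol synthesis genes 0.11 and 0.02. The p53 target genes stood at 0.01 and −0.02, and cell division genes at −0.01 and −0.08. The sensory ganglion list had medians of 0.02 and 0.02, the ependymal and cilia list 0.06 and 0.12, and the nuclear long noncoding RNA list −0.19 and 0.11. Replication-dependent histone genes had medians of 0.33 and 0.08, and lymphocyte genes −0.21 and 0.04. The erythroid medians were 0.15 and 0.27. X-linked genes that escape inactivation or drive it had medians of −0.38 and −0.43 and Y-linked genes 0.18 and 1.30. Without control replicate 1, sex and genotype cannot be told apart for these lists. With all 6 libraries Ddx3y was read in both groups, but not in the same number of libraries.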
